A study of Rattus norvegicus with 31 samples.

Results

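The 7 genes described here encode enzymes of cholesterol synthesis: Hmgcs1, Idi1, Fdft1, Sqle, Lss, Cyp51 and Dhcr7. They were chosen by name, and all 7 were found among the 26312 genes of the count table, where Cyp51 (ENSRNOG00000007234) is listed under the symbol CYP51A1. All 7 were also among the 19904 genes with enough counts to be tested. Values were measured by RNA-Seq in the livers of 31 young adult female Wistar rats (Crl:WI), dosed daily by oral gavage for 28 days. The 8 control rats received only the vehicle, 0.5% aqueous carboxymethyl-cellulose at 7.5 ml/kg bw, in which the compounds of all other groups were suspended. The neonicotinoid insecticide thiacloprid (THI) was given at 108 mg/kg bw/day to 4 rats and the azole fungicide imazalil (IMZ) at 93 mg/kg bw/day to 4 rats. The neonicotinoid clothianidin (CTD) was given at 288 mg/kg bw/day, and 3 rats of this group were measured. The authors report that killing in moribund condition occurred in this CTD group, so its values come from the rats that remained. Mixtures, with 4 rats each, contained 54 mg/kg bw/day THI with 46 mg/kg bw/day IMZ (THI + IMZ), 54 mg/kg bw/day THI with 134 mg/kg bw/day CTD (THI + CTD), or 46 mg/kg bw/day IMZ with 135 mg/kg bw/day CTD (IMZ + CTD). The compounds were dosed for equal potency, so their doses in mg differ. Rats were the replicates, and no litter, cage or sequencing batch was given in the labels.

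Hepatocytes make cholesterol from acetyl-CoA through mevalonate, isoprenoids, squalene and lanosterol. Hmgcs1 makes HMG-CoA, an early intermediate, and Idi1 isomerizes the isoprenoid units. Fdft1 joins farnesyl units to squalene, Sqle oxidizes squalene and Lss closes the rings to lanosterol. Cyp51, a cytochrome P450, removes a methyl group from lanosterol, and Dhcr7 carries out one of the last reductions. Azole fungicides act on fungi by blocking the fungal Cyp51, which is the reason to look at the liver enzyme in rats given IMZ. The genes of this pathway are known as targets of the sterol regulatory element binding proteins, transcription factors that become active when membranes are short of sterol.

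The stretches of 250 bases before the transcript start are printed for 3 of the genes, as the levels of these genes varied together from rat to rat, and a promoter is where transcription factors shared by several genes bind. They are RefSeq sequences on the build GRCr8, and the promoters of 5 of the 7 genes were used here (Hmgcs1, Idi1, Lss, Cyp51 and Dhcr7). Capitals mark CCAAT boxes (CCAAT, or ATTGG on the other strand) and GC boxes (GGGCGG, or CCGCCC on the other strand).
Hmgcs1 (chr2:53382054-53382303, plus strand): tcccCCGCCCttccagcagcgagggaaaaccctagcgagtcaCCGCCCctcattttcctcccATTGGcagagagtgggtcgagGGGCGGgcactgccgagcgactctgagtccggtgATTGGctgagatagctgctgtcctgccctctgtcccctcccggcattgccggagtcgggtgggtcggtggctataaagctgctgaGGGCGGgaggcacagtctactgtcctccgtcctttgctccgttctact
Idi1 (chr17:66547525-66547774, minus strand): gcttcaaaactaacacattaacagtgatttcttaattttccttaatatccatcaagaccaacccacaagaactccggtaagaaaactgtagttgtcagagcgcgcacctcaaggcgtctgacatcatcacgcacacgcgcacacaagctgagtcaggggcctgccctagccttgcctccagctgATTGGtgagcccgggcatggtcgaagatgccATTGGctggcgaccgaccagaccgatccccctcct
Cyp51 (chr4:30991443-30991692, plus strand): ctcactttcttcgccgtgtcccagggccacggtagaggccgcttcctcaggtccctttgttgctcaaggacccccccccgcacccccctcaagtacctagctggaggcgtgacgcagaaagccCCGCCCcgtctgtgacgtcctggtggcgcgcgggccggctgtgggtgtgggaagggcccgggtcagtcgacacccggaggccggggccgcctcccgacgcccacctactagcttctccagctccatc
A CCAAT box was found in 3 of the 5 promoters (Hmgcs1, Idi1 and Lss) and in 34.0% of all 33469 promoters of the same length. GC boxes were found in 4 of the 5, all but Idi1, and in 30.5% of all promoters. In Dhcr7, where 2 GC boxes were found, they overlap by 1 base. The core CACNCCAC of a sterol regulatory element, on either strand, was found in 0 of the 5 and in 4.89% of all promoters. Of 12 other enzymes of the pathway whose promoters were used here, 11 held a CCAAT box, 10 a GC box and 2 (Acat2 and Ebp) the core. These are matches of letters only.

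Each library held 31.8 M to 101 M counts (32.7 M to 101 M in controls), and each of the 7 genes had between 512 and 77312 counts in every rat. Levels are given as CPM, counts relative to the TMM-adjusted size of each library, and are compared between rats for one gene, not between genes. As a check of exposure, targets of the nuclear receptors CAR and PXR were called higher in every treatment, 5 to 7 of the 7 measured. Of all genes, 0.251% (IMZ) to 12.7% (CTD) were called in either direction. These targets were chosen with earlier results of these data known, and the authors had named several as changed in these rats. A high count was therefore fixed in advance and is not an independent result. The 5 hepatocyte markers summed to between 114796 and 197485 CPM in every rat. Markers of red blood cells, 4 measured, summed to 152 to 184 CPM in CTD, 26.2 to 210 CPM in THI + CTD and 18.8 to 61.5 CPM in controls, and 4 of 4 were called higher in CTD and 1 of 4 in THI + CTD, where 12.7% and 4.39% of all genes were called. Of 6 Kupffer cell markers, 2 were called lower in CTD and 2 in THI + CTD. Their summed levels were 282 to 455 CPM and 288 to 399 CPM there, against 337 to 572 CPM in controls. The sums were similar in THI + IMZ (292 to 409 CPM) and IMZ + CTD (254 to 471 CPM), and within the control range in THI and IMZ. The ranges of all treatments overlapped with that of controls. Of 5 markers of sinusoidal endothelial cells and of 5 of hepatocytes, 1 each was called lower in CTD and in THI + CTD. Of 6 stellate cell and fibroblast markers, 1 was called higher and 1 lower in each of these treatments. Pancreas markers summed to 194 to 468 CPM in controls and 17.4 to 215 CPM in treated rats, and their defining gene Prss1 was at 0 in every control, THI, CTD, THI + IMZ and THI + CTD rat. As whole liver was measured, fewer cells of a type and less RNA per cell cannot be told apart.

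Cyp51, the lanosterol demethylase, lay between 358 and 629 CPM in the 8 controls with a median of 486 CPM. In IMZ rats it was 600, 614, 546 and 597 CPM. All 4 lay above the control median and none above the highest control. THI rats had 702, 592, 617 and 461 CPM, and CTD rats 625, 681 and 609 CPM. The mixture THI + IMZ was the most spread, with 848, 730, 543 and 433 CPM. In THI + CTD the level was 617, 570, 647 and 714 CPM. IMZ + CTD had 498, 402, 556 and 429 CPM, all within the control range. By group medians the order was IMZ + CTD (464 CPM), control, IMZ (599 CPM), THI (605 CPM), CTD (625 CPM), THI + CTD (632 CPM) and THI + IMZ (636 CPM), and the ranges of all neighbours in this order overlapped.

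**Figure D1:**
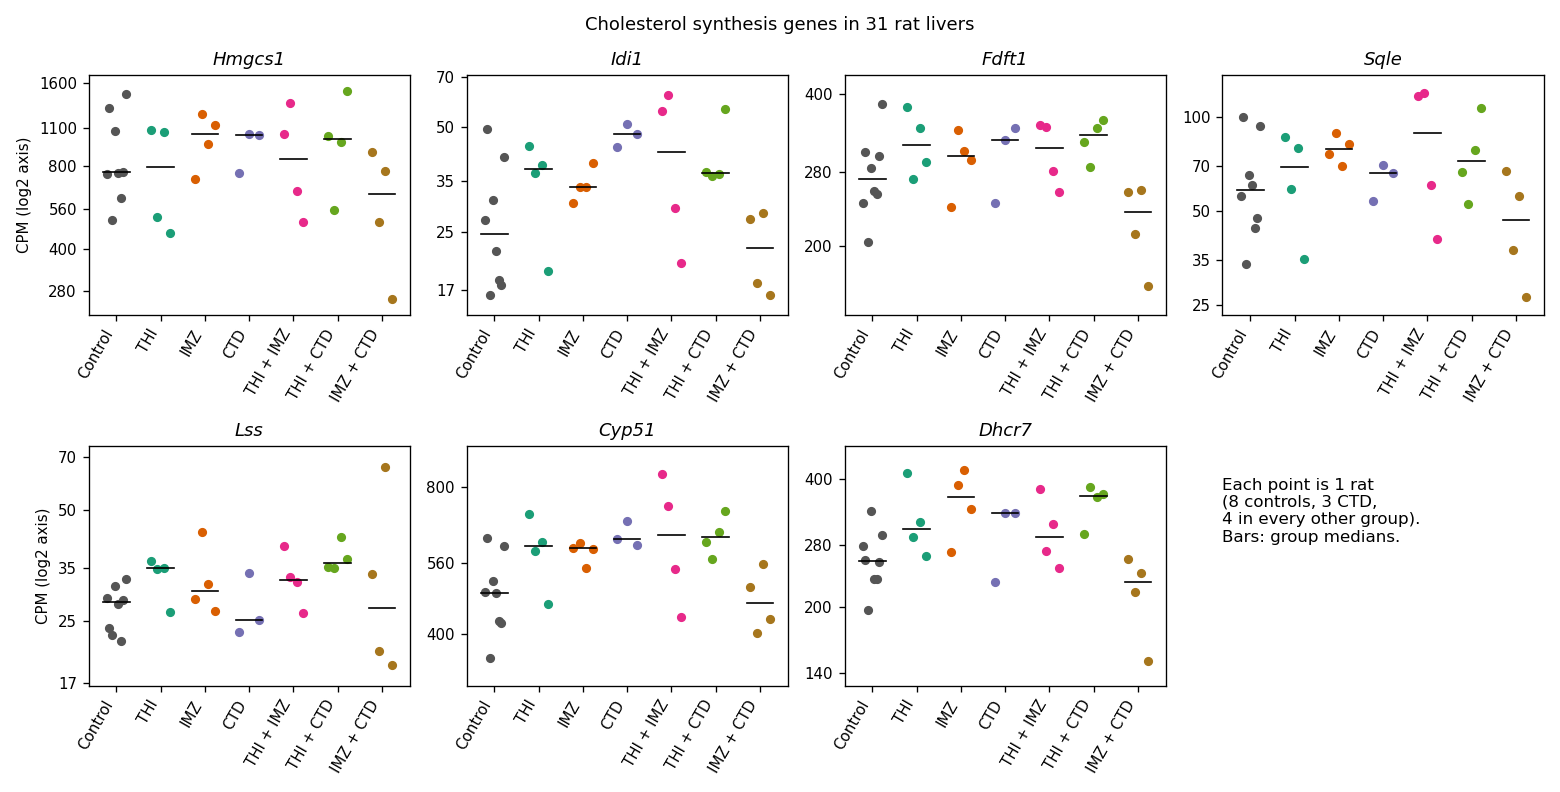
CPM of the 7 genes in each of the 31 rats by group, on log2 axes, with 1 point per rat and bars at the group medians. Cyp51 in IMZ rats lies between 546 and 614 CPM, within the control range of 358 to 629 CPM, and the 4 IMZ + CTD rats lie below the control median of 271 CPM for Fdft1.

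Upstream of Cyp51, Hmgcs1 was the most variable of the 7. In controls it lay between 507 and 1454 CPM with a median of 757 CPM. THI rats had 1077, 522, 1063 and 458 CPM, and IMZ + CTD rats 900, 500, 764 and 262 CPM. Rats of a single group thus differed by up to 3.43-fold, and a low and a high pair stood side by side within THI. The other treated rats lay between 498 and 1500 CPM.

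Idi1 lay between 16.4 and 49.6 CPM in controls, with a median of 24.6 CPM. CTD rats had 44.0, 51.1 and 48.0 CPM, close together and all above the control median, with 1 above the highest control. In THI + CTD, 3 rats were nearly level at 37.2, 36.1 and 36.7 CPM and the other one had 56.6 CPM. THI + IMZ rats had 55.8, 62.1, 29.2 and 20.3 CPM, which covers most of the range seen in all groups. In IMZ + CTD the values of 27.3, 17.8, 28.4 and 16.4 CPM lay within the control range except for the lowest, which was marginally below the lowest control.

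At the squalene steps, Fdft1 had the smallest spread within groups of the 7 genes, with 203 to 382 CPM in controls and a median of 271 CPM. IMZ + CTD rats had 256, 211, 258 and 166 CPM, all below the control median, while the other treated rats lay between 239 and 378 CPM. Sqle lay between 33.9 and 100 CPM in controls, with a median of 58.3 CPM. The 2 highest rats of all were in THI + IMZ (117 and 120 CPM), and the lowest, with 26.5 CPM, was in IMZ + CTD.

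Lss, which closes the sterol rings, lay between 22.1 and 32.5 CPM in controls, with a median of 28.2 CPM. THI + CTD rats had 35.1, 34.9, 42.3 and 36.9 CPM, all above the highest control. Over the 7 genes and 6 treatments, Lss in THI + CTD was the only case in which treated rats lay all above or all below the controls. In THI + CTD this held for 1 of 7 genes, against 3.96% of all genes. In IMZ + CTD the rats disagreed, with 33.6, 20.8, 65.6 and 19.1 CPM, so that 2 lay above and 2 below all controls.

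Dhcr7, near the end of the pathway, lay between 197 and 336 CPM in controls with a median of 257 CPM. IMZ rats had 269, 386, 419 and 341 CPM, of which 3 were above the highest control. THI + CTD rats had 296, 383, 362 and 369 CPM, again with 3 above the highest control. IMZ + CTD rats had 259, 216, 240 and 149 CPM, and 1 of them lay below the lowest control. The remaining treated rats had 229 to 413 CPM.

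The question of whether a treatment changed these genes was put to the quasi-likelihood test of edgeR, with p adjusted by Benjamini-Hochberg over all 19904 genes and a threshold of 0.05. None of the 7 passed in any of the 12 comparisons (0 of 84 tests), namely 6 treatments against control, 3 mixtures against the dose-weighted sum of their compounds and 3 pairs of single compounds. The Wald test of DESeq2 called 1 gene, Dhcr7, in THI + CTD against control and again in IMZ + CTD against its dose-weighted sum, and 0 in the other 10 comparisons. The Wald test gave an adjusted p to only part of the genes, 13342 to 17201 of them by comparison. Its shares are of those genes, not of all 19904 as for edgeR. In these 2 comparisons the Wald test called 9.82% of 14114 and 4.6% of 13342 genes. In the other treatments against control it called 1.47% (THI), 1.06% (IMZ), 20.4% (CTD), 3.06% (THI + IMZ) and 4.33% (IMZ + CTD). It called 0.393% in THI + IMZ and 1.25% in THI + CTD against their sums, and 0.0698%, 11% and 12.4% in IMZ against THI, CTD against IMZ and CTD against THI. All 6 treatments are compared with the same 8 controls, so their values are not independent of each other. The 7 genes varied together from rat to rat, so counts out of 7 do not count independent results.

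In IMZ rats, given the azole, 7 of 7 genes lay above control with a median log2 fold change of 0.26, while the median over all genes was -0.02. The level of Cyp51 was 1.20-fold that of control with a 95% confidence interval of 0.985 to 1.47-fold (adjusted p = 0.652, edgeR). A rise by more than 1.47-fold thus lies outside the interval. Dhcr7 had the largest difference, a log2 fold change of 0.44 ± 0.15 (SE), with an adjusted p of 0.303 by edgeR. Without adjustment 1 of 7 genes had p under 0.05, against 8.08% of all genes, and with adjustment 0 of 7 against 0.251%. None of the 7 had IMZ rats entirely above or below the controls, against 1.27% of all genes.

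THI rats differed from control by a median log2 fold change of 0.27 over the 7 genes, with Idi1 the highest (0.32 ± 0.27 SE) and Hmgcs1 the only one below 0 (-0.21 ± 0.31 SE). Cyp51 was at 1.21-fold of control (95% confidence interval 0.992 to 1.48-fold). The count was 0 of 7 with adjustment, against 0.543% of all genes, and 0 of 7 without, against 8.68%. Treated and control rats overlapped for all 7 genes, where 1.42% of all genes did not overlap.

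CTD had the most calls of the single compounds, 12.7% of all genes, and 0 of the 7 were among them. Idi1 came nearest, at 1.71-fold of control with an interval of 1.14 to 2.57-fold and a log2 fold change of 0.78 ± 0.29 (SE). Its adjusted p by edgeR was 0.0744, and it passed when the control rat of replicate 2 or that of replicate 8 was left out (adjusted p = 0.0185 and 0.0425), where 12.9% and 11.4% of all genes were called. Over all settings its adjusted p ranged from 0.0185 to 0.309. Cyp51 followed with a log2 fold change of 0.38 ± 0.15 (SE) and an adjusted p of 0.108 by edgeR. The other 5 genes lay between 0.01 and 0.19 on the log2 scale. Without adjustment the count was 2 of 7, against 25.2% of all genes, and 0 of 7 did not overlap with controls, against 10.8%. The red blood cell markers that were higher in the same 3 rats are given above, and their part in these values was not tested.

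**Figure D2:**
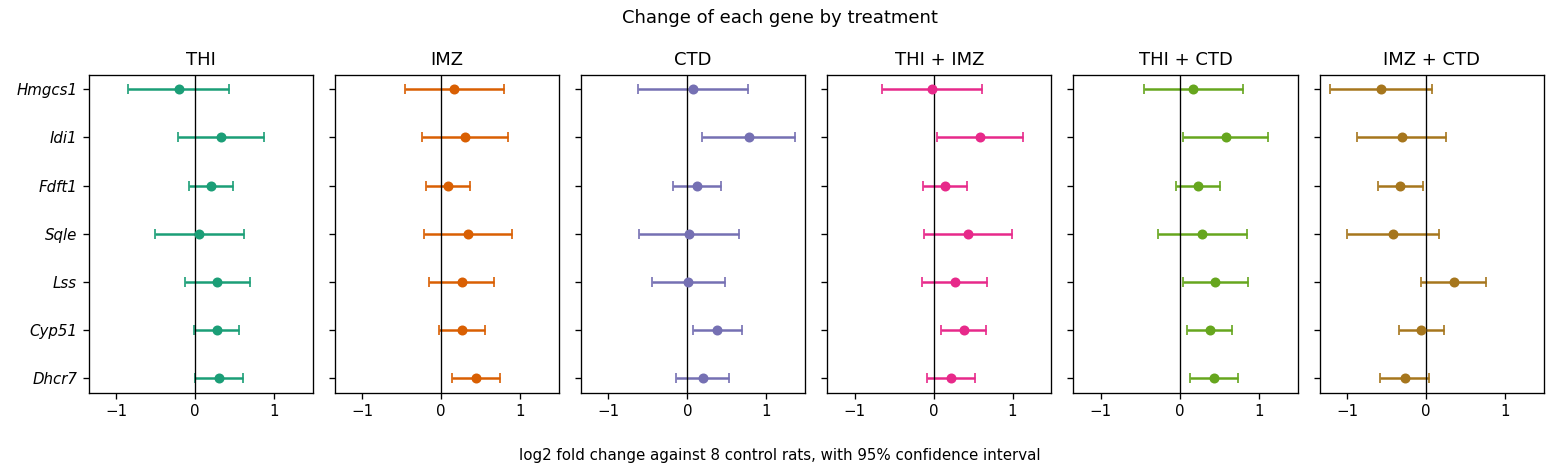
Log2 fold change of each gene in each treatment against the 8 control rats (points) with 95% confidence intervals (bars), from the edgeR fit. Most points lie to the right of 0 in 5 treatments, with Idi1 in CTD farthest at 0.78, whereas 6 of 7 lie to the left of 0 in IMZ + CTD.

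In the mixture THI + IMZ the median over the 7 genes was a log2 fold change of 0.27. Idi1 was at 1.50-fold of control (interval 1.03 to 2.19-fold) and Cyp51 at 1.30-fold (interval 1.07 to 1.59-fold). Their adjusted p-values by edgeR were 0.392 and 0.240. None of 7 passed with adjustment, against 1.18% of all genes, and 2 of 7 without, against 11.1%. For all 7 genes the 4 rats overlapped with the controls, where 1.46% of all genes did not.

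THI + CTD had the highest median, 0.38, with 7 of 7 genes above control. Dhcr7 was at 1.35-fold (interval 1.10 to 1.67-fold), Lss at 1.37-fold (interval 1.03 to 1.81-fold), Idi1 at 1.50-fold (interval 1.03 to 2.18-fold) and Cyp51 at 1.30-fold (interval 1.07 to 1.58-fold). These 4 genes had p under 0.05 without adjustment, against 17.6% of all genes, and 0 of 7 passed with adjustment, against 4.39%. The lowest adjusted p by edgeR was 0.0911 for Dhcr7. Dhcr7 passed when the control rat of replicate 4 was left out (adjusted p = 0.0416, where 4.9% of all genes were called) and under the Wald test of DESeq2 (adjusted p = 0.0484). In an edgeR fit of the control and THI + CTD rats alone, Dhcr7 and Lss passed with adjusted p-values of 0.0336 and 0.0148. In that fit 5.32% of the 18917 genes kept were called. The Kupffer cell markers of these rats, whose summed levels were similar in other mixtures, are given above, and their part in these values was not tested.

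IMZ + CTD lay on the other side, with 6 of 7 genes below control and a median log2 fold change of -0.31. Its rats were split. On the log2 scale, the median of the 7 genes relative to the control mean was -0.72 in the rat of replicate 4 and -0.38 in that of replicate 2. It was -0.08 in the rat of replicate 3. In the rat of replicate 1 it was 0.08, with 6 of 7 genes above the control mean. Hmgcs1 had the largest difference, -0.57 ± 0.32 (SE), which was -0.33 without the IMZ + CTD rat of replicate 4 and -0.82 without that of replicate 1. Fdft1 had the largest difference relative to its spread, -0.33 ± 0.14 (SE) with an adjusted p of 0.312 by edgeR. Lss was the exception at 0.35 ± 0.20 (SE), and its sign rests on the rat of replicate 3, since without that rat its log2 fold change was -0.16. Cyp51 was at 0.961-fold of control (interval 0.786 to 1.18-fold). The count was 0 of 7 with adjustment, against 1.46% of all genes, and 1 of 7 without, against 12.8%. All 7 overlapped with controls, where 2.62% of all genes did not.

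Mixtures were set against the sum of the log2 fold changes of their compounds, each weighted by the share of its single dose in the mixture (0.5 for THI and IMZ, 0.47 for CTD). IMZ + CTD lay below its sum in 6 of 7 genes, with a median log2 difference of -0.58. Dhcr7 was lower than the sum by a log2 difference of -0.58 ± 0.16 (SE), with an adjusted p of 0.0552 by edgeR. Idi1 was at -0.82 ± 0.28 (SE), Hmgcs1 at -0.69 ± 0.32 (SE) and Sqle at -0.60 ± 0.29 (SE). Fdft1 was at -0.42 ± 0.14 (SE) and Cyp51 at -0.37 ± 0.15 (SE), while Lss was at 0.22 ± 0.21 (SE). Without adjustment 6 of 7 genes, all but Lss, had p under 0.05, against 14.3% of all genes, and with adjustment 0 of 7 against 1.16%. These 6 genes are not independent of each other, as the levels of the 7 genes varied together from rat to rat. Dhcr7 passed in 7 of 28 other settings, among them the Wald test of DESeq2 (adjusted p = 0.0109), the filter by expression of edgeR (adjusted p = 0.0434) and the fits without the control rats of replicate 3 or 4, the IMZ rat of replicate 1, the CTD rat of replicate 1 or the IMZ + CTD rat of replicate 1 (adjusted p between 0.0386 and 0.0468). With the filter by expression, 2.82% of the 13870 genes kept were called. The fits without 1 rat called 1.15% and 1.11% of all genes without control replicates 3 and 4. They called 0.898% without the IMZ rat, 0.795% without the CTD rat and 1.18% without the IMZ + CTD rat. Over the 28 settings the adjusted p of Dhcr7 ranged from 0.0109 to 0.226.

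THI + IMZ and THI + CTD lay closer to their sums. Their log2 differences ran from -0.15 to 0.28 in THI + IMZ and from 0.05 to 0.31 in THI + CTD. No gene passed with adjustment (0 of 7 against 0.0151% and 0 of 7 against 0.286% of all genes) or without (0 of 7 against 6.46% and 0 of 7 against 9.66%). The intervals are wide, and reach from 0.646 to 1.77-fold over the 7 genes in THI + IMZ and from 0.706 to 1.84-fold in THI + CTD.

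**Figure D3:**
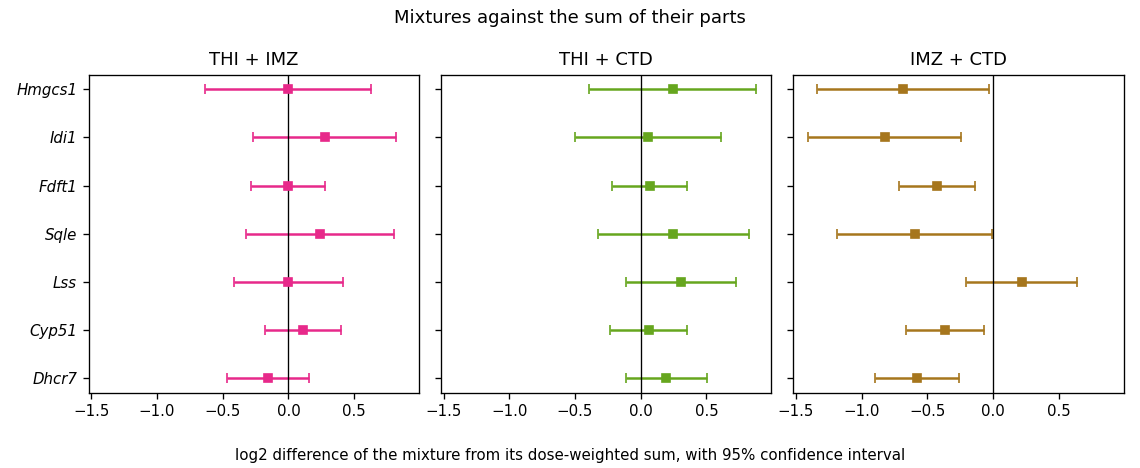
Log2 difference of each mixture from the dose-weighted sum of its compounds (squares) with 95% confidence intervals (bars). In IMZ + CTD the intervals of 6 genes lie below 0 and that of Lss includes 0, and in the other 2 mixtures the intervals of all 7 genes include 0.

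Between single compounds, whose doses in mg differed, no gene passed. IMZ against THI gave log2 differences from -0.12 to 0.37, CTD against IMZ from -0.32 to 0.48 and CTD against THI from -0.27 to 0.45. In each of the 3 pairs the count was 0 of 7 with adjustment, against 0.01%, 4.67% and 6.62% of all genes in that order, and 0 of 7 without, against 5.15%, 17.9% and 19.3%. For Cyp51 the difference between the azole and THI was -0.01 ± 0.16 (SE) on the log2 scale, with an interval of -0.34 to 0.32, and that between CTD and IMZ was 0.12 ± 0.18 (SE), with an interval of -0.25 to 0.48.

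The spread among rats of the same group was large for part of the pathway. The standard deviation of log2 CPM within groups was 0.58 for Hmgcs1, 0.52 for Sqle and 0.50 for Idi1, each larger than in 94.4% to 96.2% of the 11297 genes with an average log2 CPM above 0. It was 0.36 for Lss, 0.27 for Dhcr7, 0.25 for Cyp51 and 0.24 for Fdft1, and the median of all genes was 0.19. Differences between the 7 groups accounted for 49.8% of the sum of squares of Dhcr7, 39.8% for Cyp51, 39.0% for Fdft1 and 38.6% for Idi1, against a median of 31.6% over all these genes. For Sqle (24.4%), Hmgcs1 (20.8%) and Lss (19.5%) the share was below that median. Means of groups of few rats also differ without any effect of treatment, so these shares are not the part due to treatment.

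These differences between rats ran in the same direction in most genes. The control rat of replicate 3 was the lowest of the 8 controls for 6 of 7 genes. In THI the rat of replicate 1 was the highest for 7 of 7 and that of replicate 4 the lowest for 6. In THI + IMZ the rat of replicate 4 was the lowest of its group for 7 of 7, and in CTD that of replicate 1 for 6. The lowest for 6 of 7 was the rat of replicate 2 in THI + CTD and that of replicate 4 in IMZ + CTD. The median of the 7 genes lay 0.44 below the control mean on the log2 scale in the lowest control and 0.48 above it in the highest.

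**Figure D4:**
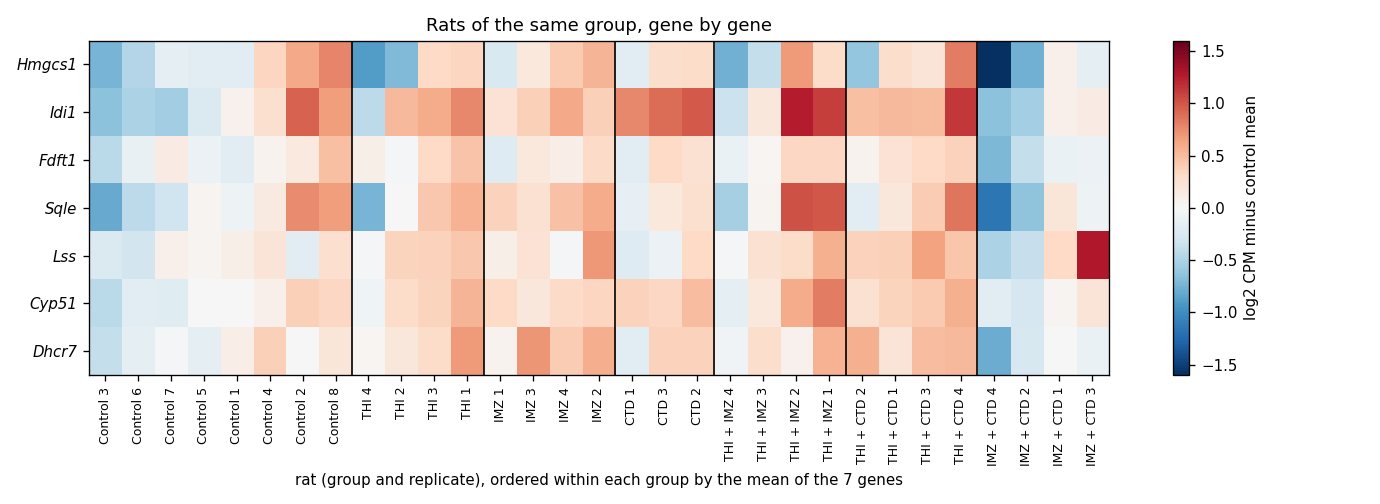
Log2 CPM of the 7 genes (rows) in 31 rats (columns) minus the mean of the controls, with rats ordered within each group by the mean of the 7 genes and groups divided by lines. Columns are mostly of one colour, running from blue to red within the controls, whose medians over the 7 genes lie between -0.44 and 0.48, and Lss in IMZ + CTD replicate 3 (65.6 CPM) stands out from its column.

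After the mean of its group was subtracted from each rat, all 21 pairs of the 7 genes were positively correlated over the 31 rats. Pearson's r was 0.47 to 0.94 with a median of 0.68, and Spearman's rho 0.55 to 0.95. By a two-sided permutation test with 100000 resamples within groups, 21 of 21 pairs passed for Pearson's r (highest adjusted p = 0.00513) and 21 of 21 for Spearman's rho (highest adjusted p = 0.00522), with Benjamini-Hochberg adjustment over the 21 pairs. When the 2 rats farthest from the median of the first gene were left out, r was 0.44 to 0.93, and 21 of 21 pairs passed. In the 8 controls alone r was 0.37 to 0.99, with a median of 0.74.

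Cyp51 was closest to Idi1 (r = 0.94, rho = 0.93) and Sqle (r = 0.93, rho = 0.95), both with a permutation p of 1e-05, the smallest that the resamples can give. It followed Hmgcs1 with r = 0.79, Fdft1 with r = 0.68, Lss with r = 0.56 and Dhcr7 with r = 0.53. On the log2 scale Cyp51 varied less widely than either Idi1 or Sqle, by the standard deviations given above. Depth and cell type markers were set against the mean of the 7 genes in the same way. Of these 10 relations, 0 passed the permutation test after Benjamini-Hochberg adjustment. The library total gave r = -0.28 and rho = -0.36 (adjusted p = 0.523 and 0.334 by permutation), and hepatocyte markers r = 0.01. The strongest was that of stellate cell and fibroblast markers, with r = -0.41, rho = -0.40 and adjusted permutation p-values of 0.248 and 0.334.

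**Figure D5:**
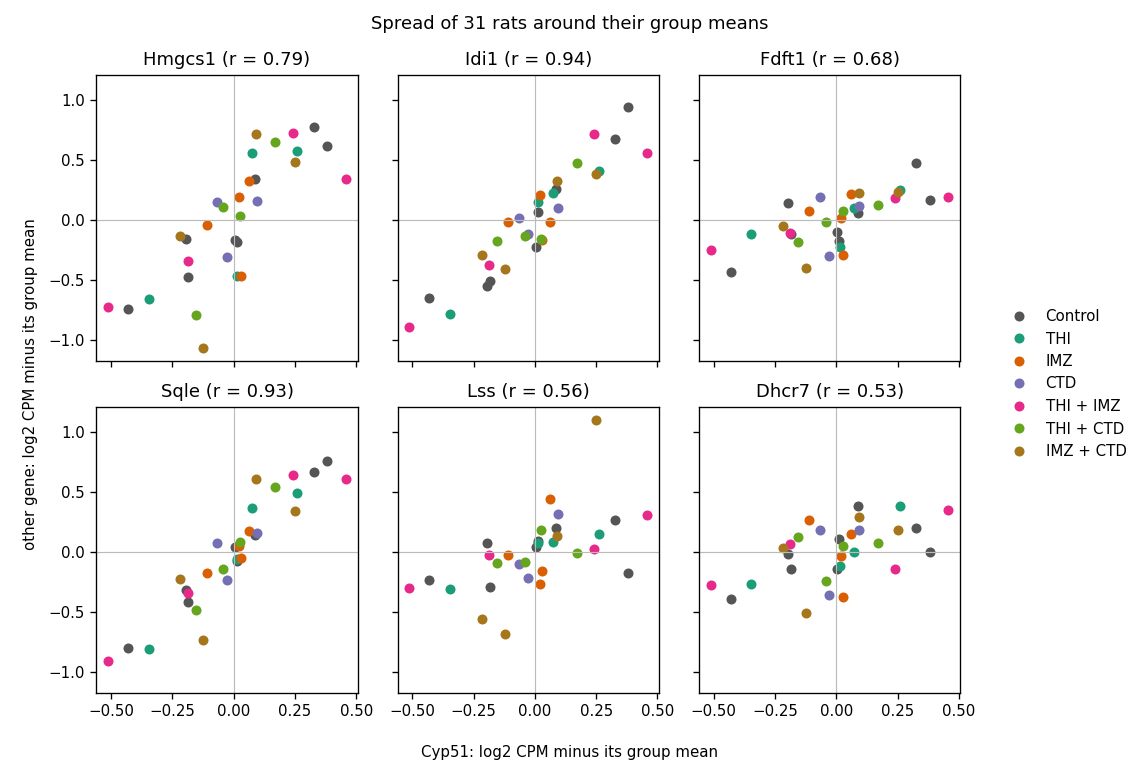
Deviation of each rat from its group mean in log2 CPM, for Cyp51 (horizontal) and each of the other 6 genes (vertical), with 1 point per rat coloured by group. Idi1 and Sqle lie close to a line with r of 0.94 and 0.93, and Lss (0.56) and Dhcr7 (0.53) scatter more.

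Among all 10969 genes with a symbol and an average log2 CPM above 0, the 10 whose rats followed Cyp51 most closely within groups included several of the pathway. Among them were Idi1, Sqle, Msmo1 (r = 0.91), which acts shortly after Cyp51 and removes further methyl groups, Fdps (r = 0.80), which makes farnesyl units, and Hmgcs1. Heatr3, DDX3X and TAF9 were also among them (r = 0.82, 0.79 and 0.79). Over all genes the median r was 0.00 and the 95th percentile 0.54. Without subtraction of the group means the closest genes included Idi1 (r = 0.95), Msmo1 (0.89), Sqle (0.87), Sc5d (0.84), Rad23b (0.83), Ddx18 (0.80), Acot4 (0.80), Cacul1 (0.79) and Ndufaf4 (0.79). By Spearman's rho only 5 of these closest 10 stayed among the closest 10, whereas within groups 10 of 10 did.

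The rest of the pathway was described by 15 further enzymes, all measured. In THI + CTD 3 of 15 were called higher and 0 lower, where 4.39% of all genes were called in either direction. Acat2, which starts the pathway by joining acetyl-CoA units, was at 42.4 to 64.7 CPM against 20.0 to 39.9 CPM in controls, a log2 fold change of 0.87 ± 0.18 (SE, edgeR adjusted p = 0.00306). Sc5d, a desaturase of the last steps, was at 441 to 501 CPM against 308 to 392 CPM, a log2 fold change of 0.46 ± 0.10 (SE, edgeR adjusted p = 0.00644). For both genes all 4 rats lay above all 8 controls, and the call held in 20 of 20 other settings, each left-out rat included.

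In CTD 3 of the 15 were called higher and 1 lower, where 12.7% of all genes were called. Sc5d was higher by a log2 fold change of 0.42 ± 0.11 (SE), and the call was lost without the CTD rat of replicate 2. Tm7sf2, a sterol reductase that acts next after Cyp51, was lower (-0.38 ± 0.11 SE), a call lost without the CTD rat of replicate 1. Acat2 (0.59 ± 0.20 SE) and Ggps1 (0.34 ± 0.11 SE), which makes geranylgeranyl units for protein prenylation, were called higher near the threshold, with edgeR adjusted p-values of 0.0430 and 0.0462. Acat2 held in 10 and Ggps1 in 9 of 19 other settings. The call of Acat2 was lost without the CTD rat of replicate 2 or any of the control rats of replicates 2, 3, 5, 6 and 7, and that of Ggps1 without any CTD rat or any of the control rats of replicates 1 to 5.

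None of the 15 was called in THI, IMZ, THI + IMZ or IMZ + CTD, where 0.543%, 0.251%, 1.18% and 1.46% of all genes were called. The medians of the 15 were 0.19 in THI + CTD, 0.20 in CTD and -0.11 in IMZ + CTD. Against the dose-weighted sum, Sc5d was the only one of the 15 called in the 3 mixtures, lower in IMZ + CTD by a log2 difference of -0.41 ± 0.11 (SE, edgeR adjusted p = 0.0497). That call held in 10 of 28 other settings, and leaving out any of 13 of the 19 rats of the 4 groups compared ended it, among them every IMZ and every IMZ + CTD rat.

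Of the 12 genes of sterol sensing and uptake, 1 was called in each of CTD, THI + IMZ and THI + CTD, where 12.7%, 1.18% and 4.39% of all genes were called, and 0 in the other treatments. Srebf2, the sterol regulatory element binding protein of this pathway, lay between -0.23 and 0.01 on the log2 scale in the 6 treatments and was not called. Insig2, which holds the sterol sensor in the endoplasmic reticulum, was called higher in THI + IMZ (0.52 ± 0.12 SE), a call lost without the THI + IMZ rat of replicate 2 or that of replicate 4. Npc1, which moves cholesterol out of lysosomes, was called lower in CTD (-0.43 ± 0.13 SE), a call lost without any of the 3 CTD rats. Mbtps2, a protease that releases the active factor, was called higher in THI + CTD (0.52 ± 0.15 SE, edgeR adjusted p = 0.0461) and held in 10 of 20 other settings, lost among others without the THI + CTD rat of replicate 2, 3 or 4. Against the dose-weighted sum Npc1 was called higher in IMZ + CTD (0.46 ± 0.11 SE, edgeR adjusted p = 0.0388), a call that held in 19 of 28 other settings and was lost without the IMZ rat of replicate 2 or 3, the CTD rat of replicate 1 or 2, or the IMZ + CTD rat of replicate 2, 3 or 4.

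Of 4 electron donors of these enzymes, 2 were called in at least 1 treatment, 1 in CTD, 2 in THI + IMZ and 1 in THI + CTD, where 12.7%, 1.18% and 4.39% of all genes were called. Por, the reductase that serves Cyp51, Sqle and the drug-metabolizing P450s, was called higher in THI + CTD (0.84 ± 0.20 SE), a call lost without the THI + CTD rat of replicate 3, and in THI + IMZ (0.82 ± 0.20 SE), where it held in 11 of 20 other settings. Cyb5a, a donor for sterol desaturation, was called higher in CTD (0.37 ± 0.09 SE) in 19 of 19 other settings and in THI + IMZ (0.36 ± 0.08 SE) in 15 of 20.

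Cyp7a1, the rate-limiting enzyme of bile acid synthesis through which the liver disposes of cholesterol, was called lower in THI + IMZ (-2.90 ± 0.56 SE) and in THI (-2.45 ± 0.55 SE). The call in THI was lost when any of the 4 THI rats was left out, and that in THI + IMZ was kept whichever rat was left out and held in 19 of 20 other settings. Cyp39a1, a hydroxylase of oxysterols, was lower in CTD (-0.58 ± 0.13 SE) in 19 of 19 other settings. Abcg8, one subunit of the sterol exporter to bile, was called lower in CTD (-1.56 ± 0.52 SE) and THI + CTD (-1.65 ± 0.46 SE), calls that held in 9 of 19 and 14 of 20 other settings and were lost without any CTD rat and without the THI + CTD rat of replicate 1, 2 or 3. Scarb1, the receptor for high-density lipoprotein, was called higher in THI + CTD (0.29 ± 0.09 SE), a call that held in 8 of 20 other settings and was lost without any THI + CTD rat. Of 14 genes of cholesterol export, storage and entry into bile acids, 1 was called in THI, 2 in CTD and 1 in THI + IMZ. In THI + CTD 1 was called higher and 1 lower. The shares of all genes called were 0.543%, 12.7%, 1.18% and 4.39% in that order, so the count in CTD was near that of all genes. In IMZ and IMZ + CTD 0 of 14 were called. There 0.251% and 1.46% of all genes were called, so 0 of 14 says little about these genes. Of 11 genes of fatty acid synthesis, which share part of their control with cholesterol synthesis, Me1, the malic enzyme that supplies NADPH, was the only one called against control. It was higher in CTD (2.23 ± 0.32 SE) and THI + CTD (2.08 ± 0.30 SE) in all other settings, and in THI (1.27 ± 0.30 SE) in 10 of 20. Of all genes, 12.7%, 4.39% and 0.543% were called in these treatments, in that order.

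In IMZ + CTD, the treatment in which 6 of the 7 synthesis genes lay below control, 5 of 11 clock genes were called, 4 lower and 1 higher. Of all genes 1.46% were called. The authors had already named Dbp, Tef, Per1 and Nr1d2 as changed in these same rats. As the list was chosen with earlier results of these data known, its count is not an independent result. Dbp, an output factor of the clock, was at -1.09 ± 0.18 (SE) on the log2 scale and Per1, a repressor, at -1.38 ± 0.27 (SE). The deubiquitinase Usp2 was at -1.62 ± 0.36 (SE) and the receptor Nr1d2 at 0.77 ± 0.17 (SE). The call of Dbp held in 20 of 20 other settings, while that of Usp2 was lost without the IMZ + CTD rat of replicate 2, 3 or 4 and that of Nr1d2 without that of replicate 2 or 4. In the other treatments 0 to 2 of the 11 were called, where 0.251% (IMZ) to 12.7% (CTD) of all genes were called. Per1 was called lower in THI, CTD and THI + IMZ and Nr1d2 higher in CTD. Per1 held in 19 of 20, 14 of 19 and 16 of 20 other settings, and was lost in CTD without any CTD rat or the control rat of replicate 5 and in THI + IMZ without the rat of replicate 3 or 4. Nr1d2 in CTD held in 10 of 19 and was lost without the CTD rat of replicate 1 or the control rat of replicate 1, 2, 3, 6 or 8. The part of the clock genes in the levels of the 7 synthesis genes was not tested.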

How the data were processed

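Livers of 31 female rats were measured by RNA-Seq, and each sample was assigned to its group and replicate from the labels. Libraries came from a stranded kit for total RNA. The authors mapped the reads to Rnor_5.0 with STAR 2.5.2b and deposited the counts per gene without normalization for 26312 Ensembl genes, and their processing notes also name FastQC 0.11.5 and DESeq2 1.15.1. The second deposited table is a normalized signal, in which each count is scaled by a DESeq2 size factor, and was used only for a check: group ratios of the 7 genes differed from those of CPM by at most 0.0046 on the log2 scale. The strand setting of the counting and the annotation release are not given in the sources used here.

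Tests used edgeR 4.0.16 in R 4.3.3 (quasi-likelihood, TMM, at least 2 counts per gene over all rats, 1 model of 7 group means), with Benjamini-Hochberg adjustment over 19904 genes, of which 2760 have an identifier only. Each SE was taken from the fold change and its F statistic. Log2 CPM used a prior count of 2. Depth was 31.8 M to 101 M counts per rat, and the 7 genes had at least 512 counts. Intervals cover the spread among rats. The members and lists were chosen with earlier results of these data known. Named were all 7 genes, per list up to 4 called genes with the smallest p, and the 10 genes most like Cyp51, though some genes these rules pick are not reported here. Srebf1, Srebf2 and Npas2 were named after their values were seen. The scripts were tested on simulated data. Alternatives were DESeq2 1.42.0 size factors and Wald test, the newer method of edgeR, other filters, only the groups compared, a replicate block, thinned counts, exact dose ratios and each rat left out, and calls of the other genes named were recomputed under them by a choice made after seeing the data. Correlations used Python 3.11.15 and scipy 1.17.1.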

Additional observations from a re-analysis of the deposited data

Results flagged for a closer look

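Of 42 groups tested (7 genes in the 6 groups of 4 or 8 rats), 2 held a rat set apart from the others by Dixon's ratio, and chance alone sets a rat apart in about 1 in 20 groups. Idi1 was highest in the THI + CTD rat of replicate 4, at 56.6 CPM, with a ratio of 0.937 against a critical value of 0.829, while the other 3 rats lay between 36.1 and 37.2 CPM. Lss was lowest in the THI rat of replicate 4, at 26.5 CPM, with a ratio of 0.851, while the other 3 lay between 34.7 and 36.4 CPM. The same THI rat was the lowest of its group for 6 of the 7 genes, and the same THI + CTD rat the highest of its group for 5 of 7. The CTD group, with 3 rats, was not tested.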

How the results depend on the processing

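The number of the 7 genes called was 0 in every comparison, and 230 of 242 recomputed counts were also 0. The other 12 were higher. THI + CTD against control had 1 gene under the Wald test of DESeq2 and 2 in a fit of only the groups compared. IMZ + CTD against its dose-weighted sum had 1 under the Wald test and 1 with the filter by expression. With 1 rat left out, the count ranged from 0 to 1 in these 2 comparisons and in CTD against control. Of 1694 recomputed values of single genes, 1594 kept their direction and side of the threshold, 13 passed it and 87 changed sign.

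With a block for the replicate number, 0 of 84 values passed (lowest adjusted p = 0.0924). Values that changed sign with the block were Sqle and Lss in CTD, at -0.069 and -0.056, and Idi1 in IMZ against THI, at 0.014. Of 36 calls of other pathway and clock genes, 20 did not pass with the block, Cyp7a1 in THI (adjusted p = 0.174) and THI + IMZ (adjusted p = 0.0863) among them. After removal of group means, 16 of 78 pairs of same-numbered rats from different groups had r above 0.1 (range -0.28 to 0.40, median 0.03). Rats of different numbers were not compared in this way, so these values cannot show whether the numbers pair the rats. The numbers 5 to 8 occurred only among controls, and each marks a single rat. With the block these control rats therefore did not enter the fold changes, so this setting also rests on fewer controls. The cause of the changes with the block was otherwise not tested.

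In THI + IMZ against its dose-weighted sum, where Hmgcs1, Fdft1 and Lss were near 0, Hmgcs1 became 0.0027 with DESeq2 size factors, 0.0027 under the Wald test, 0.0048 without a filter, 0.0023 with only the groups compared, 0.0042 with thinned counts and 0.00059 with exact dose ratios. Lss became 0.00074 without a filter and Fdft1 0.0016 with thinned counts. Lss in IMZ against THI became 0.0012 with thinned counts.

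With each rat left out in turn, 24 of the 84 log2 values changed sign in at least 1 fit. In CTD, Sqle ranged from -0.065 to 0.15, Lss from -0.17 to 0.11 and Hmgcs1 from -0.014 to 0.21. Hmgcs1 ranged from -0.30 to 0.18 in THI + IMZ and from -0.078 to 0.38 in THI + CTD, and Sqle from -0.11 to 0.26 in THI. In IMZ + CTD, Cyp51 ranged from -0.15 to 0.010 and Lss from -0.16 to 0.55, and from -0.29 to 0.41 against the sum. In THI + IMZ against its sum, Hmgcs1 ranged from -0.28 to 0.20, Fdft1 from -0.068 to 0.074, Lss from -0.11 to 0.090 and Cyp51 from -0.056 to 0.26. In THI + CTD against its sum, Hmgcs1 ranged from -0.0057 to 0.45, Cyp51 from -0.00022 to 0.11 and Idi1 from -0.13 to 0.12. In IMZ against THI, Cyp51 ranged from -0.11 to 0.081, Idi1 from -0.22 to 0.11 and Lss from -0.19 to 0.066. In CTD against THI, Dhcr7 ranged from -0.19 to 0.051, Sqle from -0.24 to 0.13 and Fdft1 from -0.18 to 0.055. In CTD against IMZ, Hmgcs1 ranged from -0.24 to 0.040 and Fdft1 from -0.059 to 0.17.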

Other observations

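Within groups, 2 clock-related genes followed Cyp51 in opposite directions. They were picked out after their values were seen, and the values are given without a test. After subtraction of group means over the 31 rats, Npas2 had r = -0.72 with Cyp51, and only 7 of 10969 genes lay lower. Usp2 had r = 0.68, above the 95th percentile of all genes (0.54). The other clock genes compared had r from -0.32 (Nr1d2) to 0.47 (Per2), among them Dbp at 0.07, Arntl at 0.22 and Clock at 0.33. In IMZ + CTD, where 6 of the 7 synthesis genes lay below control, Npas2 ran from 13.6 to 17.5 CPM against 7.57 to 15.8 CPM in controls, and Usp2 from 2.33 to 5.91 CPM against 7.33 to 16.9 CPM. Usp2 was called in this treatment against control and Npas2 was not. The labels used here give no time of day of sampling, and the part of such timing was not tested.

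Srebf2, the transcription factor of the pathway, had r = 0.66 with Cyp51 within groups and rank 96 of 10969 genes, while Srebf1, its relative in fatty acid synthesis, had r = -0.32. The reductase Por, which serves Cyp51 and the induced P450s alike, had r = 0.70. Of the induced genes themselves, Cyp2b1 had r = 0.15 within groups and 0.53 over all rats. Within groups Cyp2b2 and Abcc3 were at 0.14, whereas Aldh1a1 (-0.17), Gsta2 (-0.18) and Ephx1 (-0.47) were negative. Over all rats the lowest r of these genes was that of Ephx1, 0.23.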
